A study of Mus musculus with 10 samples.

Results

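The response of 3 mouse leukaemia lines with a floxed Zfx gene to 72 h of 10 nM 4-hydroxytamoxifen (4-OHT) is described here from 6 of the 10 microarrays of the study, 1 vehicle and 1 4-OHT array of each line. The 6 arrays were chosen by the genotype and treatment in their labels and paired by line (10949, 10950 and 10986). Every line of the study was an independent primary acute myeloid leukaemia with the MLL-AF9 fusion oncogene and carried a Cre-ER transgene, a recombinase that 4-OHT switches on. The floxed lines (Zfx fl/y, called fl lines) held the conditional Zfx allele, and lines 10977 and 10980 (Zfx wt/y, called wt lines) held the wild-type allele with the same transgene, fusion and treatments, which gave 4 arrays. Cells taken from moribund mice were cultured with IL-3, IL-6 and SCF, exposed to 4-OHT or to ethanol vehicle, and sorted for c-Kit before RNA was extracted. The promoter of the Cre-ER transgene, the deleted exons and the share of cells with a deleted allele are unknown here, since the sources used do not give them.

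Zfx is an X-linked zinc finger protein that binds promoters and activates transcription, and it is known for its part in the self-renewal of embryonic and haematopoietic stem cells. MLL-AF9 fuses only a part of the histone methyltransferase MLL to a partner that recruits the transcription elongation machinery. The fusion holds myeloid progenitors in a self-renewing state with high Hoxa9 and Meis1. The study's title asks how deletion of Zfx changes expression in c-Kit-positive cells of this leukaemia, in which loss of the progenitor state is usually followed by expression of monocyte and granulocyte genes.

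The markers of the labelled cells were present on all 6 fl arrays: on the log2 scale of the array signal, Hoxa9 lay between 11.37 and 11.81, Meis1 between 11.23 and 11.83, and Mpo, Spi1 and Ptprc also passed the level filter. Kit, the receptor used for the sort, lay at 8.35, 8.90 and 8.81 on the vehicle arrays of lines 10949, 10950 and 10986 and at 8.72, 9.20 and 8.74 on their 4-OHT arrays, so its groups overlapped. The probe set of Zfx itself was not lower with 4-OHT: it lay at 10.09, 9.63 and 9.24 with vehicle and at 10.07, 9.98 and 10.02 with 4-OHT, and where its probes lie relative to the deleted part is likewise not given, so it checks neither the deletion nor the labels. The vehicle array of line 10986 stood apart. It correlated with the 9 remaining arrays at 0.961 on average, whereas each of those averaged 0.979 to 0.985, so results are given with and without that line. With 1 array per line and treatment, p-values measure only the spread between these lines.

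Across 15662 genes the log2 changes of lines 10949 and 10950 correlated at 0.546, those of 10949 and 10986 at 0.237 and those of 10950 and 10986 at 0.0728. The changes of wt line 10977 correlated with those of fl lines 10949, 10950 and 10986 at 0.256, 0.434 and -0.315, and those of wt line 10980 at -0.167, -0.159 and -0.394. A correlation between lines was thus not limited to the fl lines, and these are descriptions across genes, which are not independent replicates. The spread (SD) of the changes was 0.255, 0.263 and 0.497 in lines 10949, 10950 and 10986, against 0.174 and 0.188 for wt lines 10977 and 10980. In line 10986, 950 genes were at least 1 log2 unit higher with 4-OHT, against 67 in line 10949 and 26 in line 10950, while the genes at least 1 unit lower numbered 54, 48 and 58 in lines 10986, 10949 and 10950. The wide, mainly upward spread of line 10986 moves with its vehicle array, whose part in it was not tested.

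**Figure D1:**
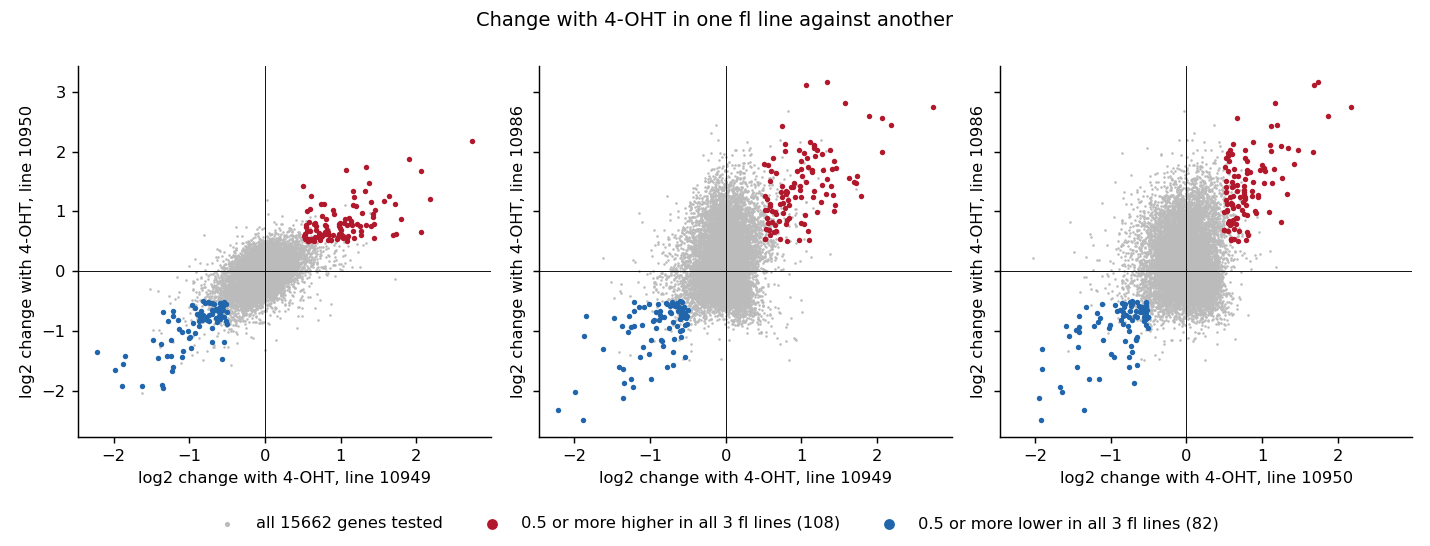
Each point is a gene, and its axes give the log2 change (4-OHT minus vehicle) in 2 fl lines, for all 15662 genes tested (grey), the 108 genes at least 0.5 higher in all 3 fl lines (red) and the 82 at least 0.5 lower (blue). The cloud of lines 10949 and 10950 is tilted along the diagonal (r = 0.546), and the clouds that involve line 10986 are stretched upward (r = 0.237 and 0.0728).

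In limma's moderated test with the line as a block, 8 genes rose (0.0511% of the genes tested) and 16 fell (0.102%) in the fl lines at a Benjamini-Hochberg adjusted p under 0.05, in all 24 genes (0.153%). A wider description was used for the functions below: a log2 change of at least 0.5, which is 1.41-fold, with the same sign in each of the 3 fl lines. It held for 108 genes that were higher (0.69%) and 82 that were lower (0.524%), together 190 (1.21%), among them all 24 genes that passed. The rule is not equally strict in each line and direction. In lines 10986, 10949 and 10950, 3058, 354 and 264 genes were at least 0.5 higher, and 872, 488 and 579 were at least 0.5 lower. At 1 log2 unit in every line, 16 genes were higher (0.102%) and 12 lower (0.0766%). The sign alone was shared by all 3 lines for 2288 genes that were higher (14.6%) and 2274 that were lower (14.5%). For 712 genes every 4-OHT array lay above every vehicle array (4.55%), and for 1138 every one lay below (7.27%). The 24 calls depend on the lines in the fit: leaving out line 10949, 10950, 10977 or 10980 left 0 calls, whereas 144 rises and 296 falls, the 24 among them, passed when line 10986 was left out. The split also depends on the scaling: 28 genes rose and 33 fell after quantile normalization, 31 and 34 with arrays centred on the median of the genes tested, and 1 and 2 with arrays centred on their own median, against 8 and 16. The threshold of 0.5 fell within a continuous range, with Arid5b and Fnip2 just inside it (smallest change 0.502 in each) and Mirt2 and Bcl2l11 just outside it (0.499 and 0.498). Fnip2, Mirt2 and Bcl2l11 were chosen for this after their values were seen.

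Of the genes that rose, Mmp8, the neutrophil collagenase, lay at 8.23, 7.72 and 8.62 on the vehicle arrays of lines 10949, 10950 and 10986 and at 10.97, 9.89 and 11.37 on their 4-OHT arrays, a rise of 2.56 with an SE of 0.19 (n = 3 line pairs, limma adjusted p = 0.0143). All 3 of its 4-OHT arrays lay above all 3 vehicle arrays, and its change was 0.53 and -0.32 in the wt lines 10977 and 10980. Dab2, an endocytic adaptor of the clathrin pathway, went from 8.13, 8.02 and 8.73 to 10.19, 9.70 and 10.71, and rose by 1.91 (SE 0.13, adjusted p = 0.0143). Vcan, the proteoglycan versican that monocytes make, went from 7.36, 7.54 and 8.75 to 8.99, 8.80 and 10.30, and rose by 1.48 (SE 0.11, adjusted p = 0.0143). The groups did not overlap for Dab2 or Vcan, although line 10986 was the highest line for both before and after treatment. Hpse, heparanase, which cleaves heparan sulphate, went from 10.10, 8.97 and 9.34 to 11.48, 10.44 and 11.37.

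Among the other genes that rose, Irf8, which directs the formation of monocytes and dendritic cells, had a narrow spread: 9.06, 9.11 and 9.48 with vehicle and 10.10, 9.91 and 10.42 with 4-OHT. Ctss, the lysosomal protease cathepsin S, lay at 8.06, 7.43 and 8.02 and then at 9.52, 8.46 and 9.75. Every 4-OHT array was above every vehicle array for both genes. Itga1, the alpha chain of a collagen-binding integrin, went from 8.23, 7.57 and 9.17 to 9.63, 8.72 and 10.89, so its groups overlapped although each line rose by more than 1 log2 unit (1.40, 1.16 and 1.71). Rab19, a small GTPase of membrane traffic, went from 7.19, 7.08 and 7.34 to 8.62, 7.98 and 8.35. In the wt lines, the 8 genes that rose had a median change of 0.16 in line 10977 and -0.19 in line 10980.

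**Figure D2:**
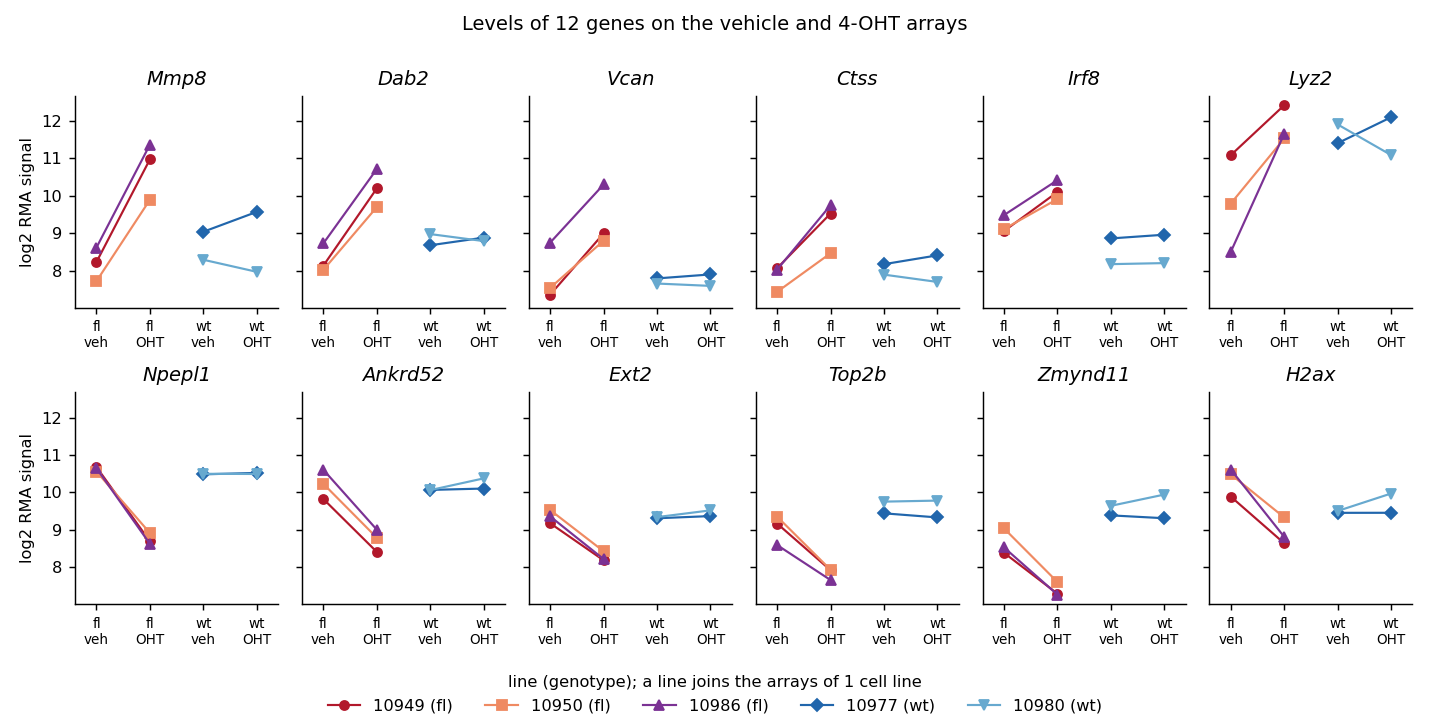
Log2 RMA signal of 12 genes on the vehicle (veh) and 4-OHT (OHT) arrays of the 3 fl and 2 wt lines, each line joining the arrays of 1 cell line. The top row shows genes that were higher with 4-OHT in every fl line (Mmp8 from 7.72 to 8.62 with vehicle, from 9.89 to 11.37 with 4-OHT), and the bottom row genes that were lower in every fl line (Npepl1 from 10.56 to 10.68 with vehicle, from 8.63 to 8.92 with 4-OHT), while the wt lines stayed nearly flat for Npepl1.

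The 16 genes that fell were of mixed function, and for each of them all 3 4-OHT arrays lay below all 3 vehicle arrays. Npepl1, a putative aminopeptidase, lay at 10.68, 10.56 and 10.65 with vehicle and at 8.69, 8.92 and 8.63 with 4-OHT (change -1.88, SE 0.11, n = 3 line pairs, limma adjusted p = 0.0143). Its 3 lines lay close together on each side. Ankrd52, a regulatory subunit of protein phosphatase 6, went from 9.82, 10.23 and 10.61 to 8.41, 8.79 and 9.01. Ptpn9, a tyrosine phosphatase, went from 8.84, 9.02 and 8.67 to 7.47, 7.81 and 7.75. Neither gene overlapped between the treatments.

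Chromatin genes among those that fell were Zmynd11, a reader of methylated histone H3, Top2b, a DNA topoisomerase, H2ax, the histone variant that marks DNA breaks when phosphorylated, and the histone H3 gene H3c4. Zmynd11 lay at 8.39, 9.04 and 8.53 with vehicle and at 7.29, 7.61 and 7.27 with 4-OHT. Top2b lay at 9.17, 9.35 and 8.59 and then at 7.92, 7.93 and 7.66, and H2ax at 9.89, 10.48 and 10.61 and then at 8.64, 9.33 and 8.81. Their limma adjusted p-values were 0.0357, 0.0357 and 0.046 (n = 3 line pairs each). H3c4 went from 9.55, 10.85 and 10.53 to 8.33, 9.18 and 8.59, but its probes can read near-identical histone genes and its level is uncertain.

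Dis3l, an exonuclease of the cytoplasmic RNA exosome, went from 8.44, 8.33 and 8.15 to 7.14, 6.91 and 7.14, with nearly equal levels in the 3 lines on each side. Mvb12b, a subunit of the ESCRT-I sorting complex, went from 9.52, 9.60 and 9.17 to 8.31, 8.0 and 8.25, and Fbxw5, a substrate receptor of a cullin ubiquitin ligase, from 10.00, 9.97 and 9.96 to 9.05, 9.10 and 9.16. The 3 lines lay close together for Fbxw5 on each side. Ext2, which with Ext1 polymerises heparan sulphate, went from 9.17, 9.53 and 9.36 to 8.18, 8.43 and 8.22, in the opposite direction to the cleaving enzyme Hpse. Retsat, retinol saturase, went from 9.95, 9.72 and 9.54 to 8.85, 8.71 and 8.64, and Pyroxd2, a putative mitochondrial oxidoreductase, from 8.40, 8.56 and 8.43 to 7.54, 7.72 and 7.70. Cebpd, a transcription factor of the C/EBP family, fell from 8.84, 8.85 and 8.93 to 7.96, 8.14 and 8.13. Lrrc41, a leucine-rich repeat protein, went from 8.95, 8.58 and 8.08 to 7.07, 7.03 and 6.99. Cibar1, a membrane-shaping BAR domain protein, went from 7.37, 7.78 and 7.0 to 5.75, 5.87 and 5.71, below the level filter of 6.23 where an array can understate a fall.

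Zfx binds promoters near the start site, and the core of its known binding motif is AGGCCT, which reads the same on both strands. Promoter windows of 300 bases (250 before to 50 after the start, RefSeq, GRCm38.p6) were found for 13 of the 16 genes that fell and for all 8 that rose. AGGCCT stood in 5 of 17 windows of the genes that fell (29.4%) and in 2 of 10 windows of those that rose (20%), against 10.5% of the 15412 windows of all genes tested. In the wider sets it stood in 13.4% of 82 windows of the genes that were lower and in 10.5% of 114 windows of the genes that were higher. The median number of CG pairs per window was 21.5 for the lower genes, 8 for the higher genes and 18 for all. TATAAA on either strand stood in 9.76% of the lower, 21.1% of the higher and 9.01% of all windows. A match only says that these letters are in the window, and binding was not measured. The 4 promoters of genes that fell and hold the motif, and those of the 2 with the largest change among the 8 genes that passed as higher, are shown 5′ to 3′ on the gene's strand with AGGCCT in capitals, so that the CG-rich windows of Ankrd52, Zmynd11 and Dis3l (48, 48 and 32 CG pairs) can be set beside the CG-poor ones of Mvb12b, Mmp8 and Dab2 (4, 4 and 2).
Ankrd52 (chr10:128376874-128377173, plus strand): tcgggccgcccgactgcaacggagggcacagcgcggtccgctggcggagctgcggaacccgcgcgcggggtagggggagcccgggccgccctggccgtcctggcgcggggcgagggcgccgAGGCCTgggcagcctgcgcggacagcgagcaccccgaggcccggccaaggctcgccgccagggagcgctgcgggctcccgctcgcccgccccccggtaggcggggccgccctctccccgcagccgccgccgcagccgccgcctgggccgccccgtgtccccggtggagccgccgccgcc
Zmynd11 (chr13:9764421-9764720, minus strand): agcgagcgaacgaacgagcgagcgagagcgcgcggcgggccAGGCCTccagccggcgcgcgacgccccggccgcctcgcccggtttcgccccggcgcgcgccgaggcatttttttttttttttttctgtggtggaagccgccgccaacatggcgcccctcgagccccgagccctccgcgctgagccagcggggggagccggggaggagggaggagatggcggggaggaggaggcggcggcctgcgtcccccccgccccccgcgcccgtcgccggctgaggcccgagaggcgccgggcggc
Mvb12b (chr2:33887897-33888196, minus strand): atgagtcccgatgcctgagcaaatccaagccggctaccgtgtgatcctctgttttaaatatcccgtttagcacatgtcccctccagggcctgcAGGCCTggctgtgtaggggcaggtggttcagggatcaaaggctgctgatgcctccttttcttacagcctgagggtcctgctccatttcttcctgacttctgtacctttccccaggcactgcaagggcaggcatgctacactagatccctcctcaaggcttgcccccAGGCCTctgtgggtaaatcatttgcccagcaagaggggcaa
Dis3l (chr9:64340724-64341023, minus strand): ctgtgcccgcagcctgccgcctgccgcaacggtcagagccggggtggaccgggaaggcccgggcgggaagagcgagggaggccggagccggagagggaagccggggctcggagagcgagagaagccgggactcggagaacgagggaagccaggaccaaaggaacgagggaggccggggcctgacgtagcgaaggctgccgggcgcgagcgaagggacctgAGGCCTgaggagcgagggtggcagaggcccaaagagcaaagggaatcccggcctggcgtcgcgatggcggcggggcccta
Mmp8 (chr9:7558179-7558478, plus strand): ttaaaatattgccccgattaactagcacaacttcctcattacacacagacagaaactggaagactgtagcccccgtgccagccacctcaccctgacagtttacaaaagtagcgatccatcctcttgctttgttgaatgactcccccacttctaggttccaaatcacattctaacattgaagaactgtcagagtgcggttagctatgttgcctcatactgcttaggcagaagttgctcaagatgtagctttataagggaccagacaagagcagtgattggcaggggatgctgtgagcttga
Dab2 (chr15:6299539-6299838, plus strand): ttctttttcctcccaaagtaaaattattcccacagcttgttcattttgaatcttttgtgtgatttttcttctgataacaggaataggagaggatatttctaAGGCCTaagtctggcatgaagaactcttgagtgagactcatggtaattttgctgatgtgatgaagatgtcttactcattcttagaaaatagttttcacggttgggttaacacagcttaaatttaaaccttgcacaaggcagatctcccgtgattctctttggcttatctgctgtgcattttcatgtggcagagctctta
Zmynd11, Dis3l and Dab2 have further start sites in the table (4, 2 and 2 windows), of which 2, 1 and 1 hold AGGCCT. Relative to the start site, the motif begins at -129 in Ankrd52, -209 in Zmynd11, -30 in Dis3l and -149 in Dab2. Mvb12b has 2 copies, the earlier at -157, and Mmp8 has none.

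In the wt lines the genes of the wider sets did not follow one direction. The 108 higher genes had median changes of 0.97, 0.72 and 1.35 in fl lines 10949, 10950 and 10986, of 0.15 in wt line 10977 (78 of 108 higher) and of -0.26 in wt line 10980 (86 of 108 lower). The 82 lower genes had medians of -0.82, -0.79 and -0.80 in the fl lines, -0.11 in line 10977 (61 lower) and 0.16 in line 10980 (67 higher). Line 10977 thus moved with the fl lines and line 10980 against them, at a smaller size in both sets. Both wt changes were under 0.25 for 42 of the 108 higher genes (38.9%) and 46 of the 82 lower genes (56.1%), against 78.4% of all genes tested. Thbs1, the matrix protein thrombospondin 1, had large changes in every line: its changes of -1.89, -1.92 and -2.48 in the fl lines stood beside -4.07 and 3.68 in the wt lines, and it did not pass (limma adjusted p = 0.585).

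**Figure D3:**
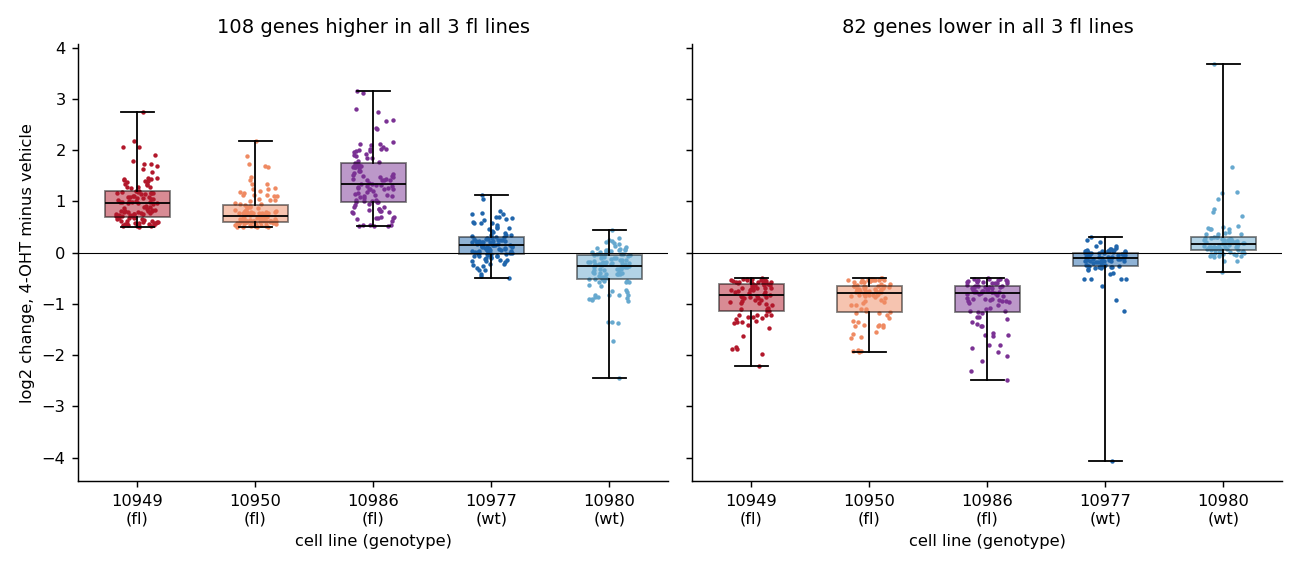
Log2 change (4-OHT minus vehicle) of the 108 genes at least 0.5 higher and the 82 genes at least 0.5 lower in all 3 fl lines, in each fl and wt line. Points are genes, boxes the quartiles, centre lines the medians and whiskers the full range. The rule fixes the sign in the fl lines. Medians of wt lines 10977 and 10980 are 0.15 and -0.26 for the higher genes and -0.11 and 0.16 for the lower genes.

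No gene passed the test of the difference between the fl and wt changes (0 of 15662, 0%, limma, smallest adjusted p 0.198). In it 912 genes had an unadjusted limma p under 0.05, where 783 would by chance. Without line 10986, 20 genes passed that test (0.128%), 5 with a larger rise in the fl lines and 15 with a larger fall. Those with a larger rise were Mmp8 (difference 2.35, SE 0.29, limma adjusted p = 0.0326), Dab2, Hpse, Vcan and Chn2, a Rac-specific GTPase-activating protein. Those with a larger fall included Npepl1 (-1.83, SE 0.15), Cibar1 (-1.74, SE 0.15), Ankrd52 (-1.60, SE 0.14), Lrrc41, Mvb12b, H2ax, Zmynd11, Dis3l, Ptpn9, Top2b, Ext2, Retsat and Kdelr1, the receptor that returns proteins to the endoplasmic reticulum. Of the 20 genes, 18 were past 0.5 in all 3 fl lines and 16 passed in the fl lines with all arrays. The 2 outside the wider set were Rny1, a small Y RNA, with -1.63, -2.03 and 0.21 in lines 10949, 10950 and 10986, and Sccpdh, with -1.22, -1.19 and 0.19, both chosen after their values were seen. This fit rests on 2 fl and 2 wt lines and 2 residual degrees of freedom.

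To describe the response by function, the genes were read against 92 lists, 77 of functions and 15 of cell type markers, which hold 4598 of the genes tested. The lists were chosen with earlier results of these data known, so shares and rankings of lists are descriptions and not an independent test. Of the 108 higher genes 55 were in a list, and of the 82 lower genes 33 were. The counts of each list are to be set beside the shares over all genes tested, 0.69% past 0.5 upward and 0.524% downward. Members of 34 functional lists were past 0.5 upward and members of 26 downward, and 30 functional lists had no member past 0.5.

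Markers of monocytes and macrophages had the highest share past 0.5 of the lists with at least 20 genes tested. Of 32 on the array 28 passed the level filter, and 9 of these 28 (32.1%, against 0.69% of all genes) were at least 0.5 higher in every fl line, of which Vcan, Irf8 and Ctss passed the test. None was at least 0.5 lower. The median change of the list was 0.64, 0.33 and 0.76 in fl lines 10949, 10950 and 10986, 0.21 in wt line 10977 and -0.33 in wt line 10980. The mean log2 level of its 28 genes was 8.53 to 8.71 in the fl vehicle samples and 8.93 to 9.53 after 4-OHT. In such bulk RNA, more cells of a type and more RNA per cell cannot be told apart.

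Lyz2, lysozyme M of myeloid cells, lay at 11.09, 9.79 and 8.50 with vehicle and at 12.42, 11.53 and 11.66 with 4-OHT, a difference of 2.08 that did not pass (SE 0.39, limma adjusted p = 0.111). Its size depends on line 10986, whose vehicle array was the lowest: without that line the change was 1.54 (SE 0.29, limma adjusted p = 0.0386). Cybb, the catalytic chain of the phagocyte NADPH oxidase, had even changes of 1.33, 1.33 and 1.29, from levels of 10.28, 8.77 and 10.81, but it also differed by 0.75 and -0.95 in the wt lines and did not pass (limma adjusted p = 0.13). The chemokine genes Ccl6 and Ccl9 of the same list were higher by 1.45, 0.78 and 1.11 and by 0.52, 0.62 and 1.26, without passing, and the differences of Ccl6 in the wt lines were 1.13 and -1.73.

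Of 22 late neutrophil markers tested, Mmp8 alone was past 0.5, with list medians of 0.20, 0.16 and 0.13 in the fl lines and 0.19 and -0.29 in the wt lines. The mean level of those 22 genes was 7.72 to 8.09 in the fl vehicle samples and 7.93 to 8.38 after 4-OHT. None of the 16 primary granule markers was past 0.5, and their mean level lay between 11.19 and 11.79 with vehicle and between 11.29 and 11.58 with 4-OHT. Whether a change in cell types takes part in the results here was not tested. None of the 12 B cell, 3 NK cell, 17 dendritic cell, 13 erythroid, 7 eosinophil, 5 plasma cell and 9 endothelial markers tested was past 0.5. At the shares of all genes, 0.69% higher and 0.524% lower, lists this short would rarely hold a member past 0.5. The absence of such a member, in the primary granule list too, says nothing about the cell type. The B cell, dendritic cell and erythroid lists also had median levels of 6.62, 6.63 and 6.78. These lie near the level filter of 6.23, where an array can understate a fall. In the T cell and the fibroblast list the only marker past 0.5 was Thy1 (0.61, 1.25 and 0.83). In the mast cell list it was Ccl3, which monocytes also make. Thy1 was also the only one past 0.5 of the 12 stem and progenitor surface markers tested. The medians of that list were 0.22, 0.18 and 0.02 in the fl lines and 0.08 and -0.08 in the wt lines. In all 3 fl lines 5 of the 12 were higher (41.7%, against 14.6% of all genes) and 1 was lower (8.33%, against 14.5%). Of 11 megakaryocyte markers F2rl2 was past 0.5 upward and Thbs1 downward.

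**Figure D4:**
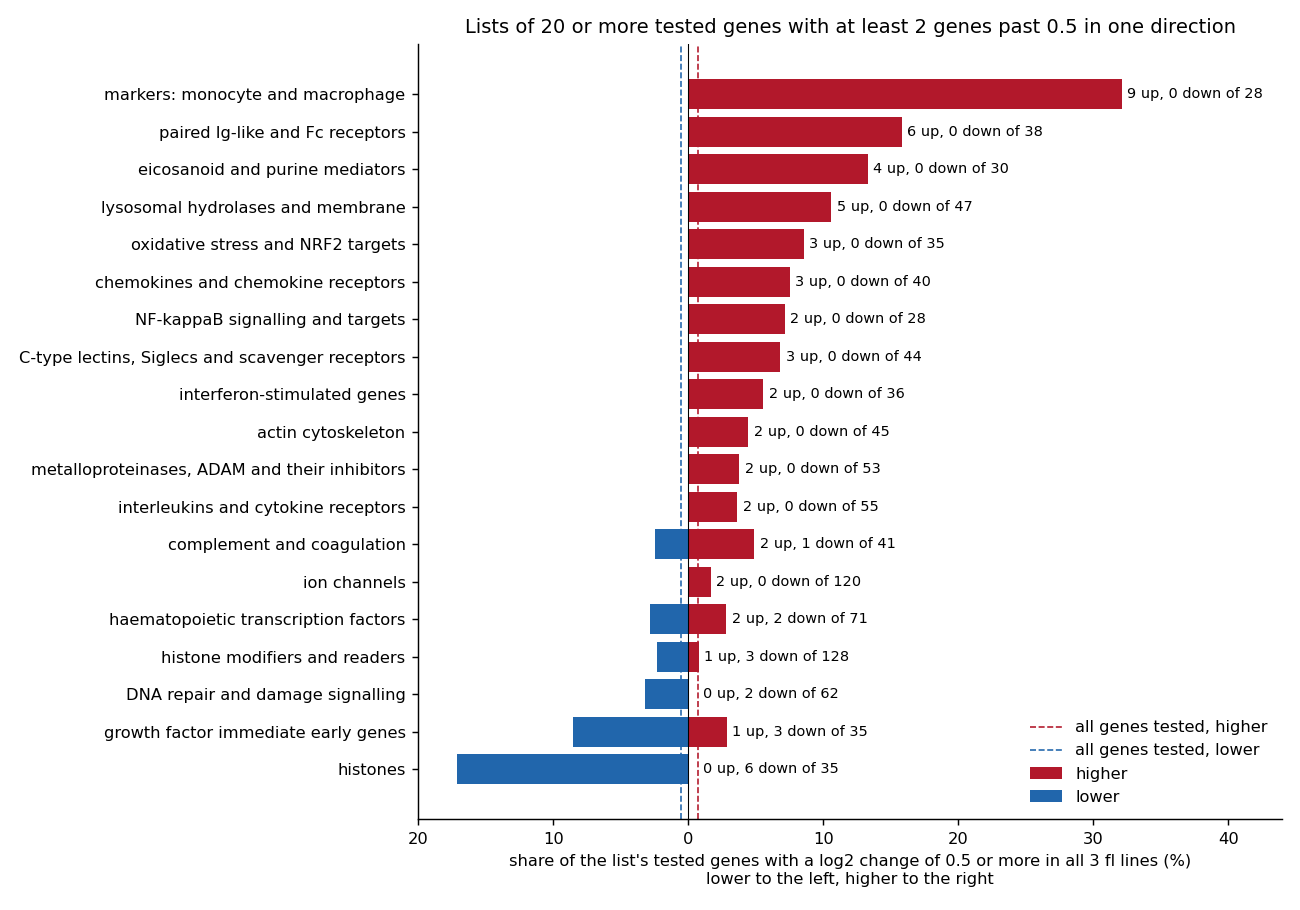
Share of each list's tested genes, in percent, with a log2 change of at least 0.5 in all 3 fl lines, lower to the left and higher to the right, for lists of at least 20 tested genes with at least 2 such genes in one direction. Dashed lines mark the shares over all genes tested, 0.69% higher and 0.524% lower. Monocyte and macrophage markers (9 of 28) extend farthest to the right and histones (6 of 35) farthest to the left.

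Among genes of digestion in the phagocyte, 5 of 47 lysosomal genes (10.6%, against 0.69% of all genes) were past 0.5 upward and none downward. They were the proteases Ctss, Ctsh, Lgmn and Ctsl and the acid lipase Lipa, of which Ctsl and Lipa are named after their values were seen. Ctsh differed by 1.06, 0.88 and 1.49, with non-overlapping groups, and Lgmn, legumain, by 1.0, 0.80 and 1.84. Only Ctss passed with all lines, and 24 of the 47 genes were higher in all 3 lines (51.1%, against 14.6% of all genes). Atp6v0a1, a subunit of the vacuolar ATPase that acidifies lysosomes, had nearly equal changes in the 3 lines, with 9.47, 9.58 and 9.71 before and 10.14, 10.28 and 10.38 after 4-OHT (change 0.68, SE 0.10, limma adjusted p = 0.0799, so it did not pass).

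Of 38 paired immunoglobulin-like and Fc receptor genes 6 (15.8%, against 0.69% of all genes) were past 0.5 upward. Among them were Lilr4b (1.42, 0.95 and 1.28), Lilrb4a (0.99, 0.72 and 1.24) and Cd300lf (1.0, 0.69 and 1.59), receptors that tune the activation of myeloid cells. The Lilr genes are close relatives whose probes may share signal, and both also differed in the wt lines, by 0.81 and -0.91 for Lilr4b and by 0.66 and -0.82 for Lilrb4a. Of 44 C-type lectin, Siglec and scavenger receptor genes 3 (6.82%, against 0.69% of all genes) were past 0.5 upward. They were Dab2, an adaptor listed with them, Clec5a (1.11, 0.89 and 2.16) and Clec7a, the beta-glucan receptor dectin-1 (1.34, 0.77 and 1.54). Clec7a lay at 8.39, 7.71 and 7.47 with vehicle and at 9.73, 8.49 and 9.01 with 4-OHT, without overlap, while it differed by -0.21 in wt line 10980. Of 29 pattern recognition receptor genes the only one past 0.5 was Tlr13, an endosomal sensor of bacterial ribosomal RNA, which went from 7.30, 7.30 and 8.18 to 9.48, 8.51 and 10.62. Its changes in the wt lines were 0.76 and -0.82, and it did not pass (limma adjusted p = 0.0956).

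Of 40 chemokine and chemokine receptor genes Ccl3, Ccl6 and Ccl9 were past 0.5 upward (7.5%, against 0.69% of all genes). The list median was 0.04, 0.18 and -0.15 in the fl lines. Ccl3, an inflammatory chemokine, went from 12.51, 12.06 and 11.67 to 13.67, 13.40 and 13.74, with changes of 0.77 and -1.35 in the wt lines. Of 55 interleukin and cytokine receptor genes 2 (3.64%, against 0.69% of all genes) were past 0.5 upward. They were Il13ra1 (1.18, 0.56 and 1.93) and Csf2rb2, the mouse IL-3-specific beta chain (0.97, 0.79 and 0.53). Of 30 eicosanoid and purine mediator genes 4 (13.3%, against 0.69% of all genes) were past 0.5 upward. They were Nt5e and Entpd1, the ectoenzymes that turn extracellular ATP into adenosine, P2rx7, an ATP-gated channel, and Ptgs2, the inducible cyclooxygenase. Nt5e went from 10.82, 10.00 and 9.88 to 11.60, 11.12 and 11.89, and Entpd1 from 9.01, 8.92 and 8.91 to 9.75, 9.49 and 10.14, both without overlap. None of the 4 passed with all lines, and all 4 passed without line 10986 (limma adjusted p = 0.032, 0.024, 0.0316 and 0.0195 in the order named).

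Of 36 interferon-stimulated genes 18 were higher in all 3 lines (50%, against 14.6%), but only the guanylate-binding proteins Gbp7 (1.21, 0.78 and 2.03) and Gbp3 (1.03, 0.55 and 1.98) were past 0.5. Of 35 oxidative stress genes 3 (8.57%, against 0.69% of all genes) were past 0.5 upward. They were Hmox1, heme oxygenase, from 9.03, 8.59 and 8.98 to 10.17, 9.39 and 10.66, Slc7a11, the cystine transporter, and Nqo1, a quinone reductase. Each of the 3 passed without line 10986 (limma adjusted p = 0.0327, 0.0125 and 0.0154) and none passed with it.

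In the actin cytoskeleton list of 45, the genes past 0.5 were Plek and Tpm4. Plek, the protein kinase C substrate pleckstrin, went from 9.48, 8.58 and 9.01 to 10.64, 9.68 and 11.12, and Tpm4, a tropomyosin, from 10.80, 10.67 and 10.73 to 11.64, 11.28 and 11.83. Beside Mmp8, the only gene past 0.5 of 53 metalloproteinase and ADAM genes was Adam8 (0.59, 0.68 and 1.09), which differed by 0.60 and -0.27 in the wt lines 10977 and 10980. Penk, which encodes the precursor of enkephalin peptides and is in no list, went from 8.82, 8.16 and 8.24 to 10.72, 10.04 and 10.83, without overlap. Its change of 2.13 (SE 0.25) missed the threshold (limma adjusted p = 0.051) and passed without line 10986 (1.89, SE 0.24, limma adjusted p = 0.0111). Gstt1, a glutathione transferase, went from 7.47, 7.31 and 7.39 to 9.04, 8.49 and 10.20, and Trp53inp1, a stress-induced p53 target, from 8.41, 8.77 and 8.64 to 10.13, 9.90 and 10.10. The latter differed by 1.04 and -2.44 in the wt lines and did not pass (limma adjusted p = 0.366).

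Of 39 histone genes on the array 35 passed the level filter, 6 of these (17.1%, against 0.524% of all genes) were at least 0.5 lower in every fl line, and H2ax and H3c4 passed. In all 3 lines 26 of the 35 (74.3%, against 14.5%) were lower and 0 were higher. The list medians were -0.28, -0.41 and -0.27 in the fl lines, -0.17 in line 10977 and 0.08 in line 10980. H2bc8 went from 10.82, 11.85 and 11.31 to 9.46, 9.95 and 9.68 and H3c15 from 8.10, 9.29 and 8.98 to 6.75, 7.35 and 6.86, neither passing (limma adjusted p = 0.0557 and 0.0948). These replication-dependent histone genes have near-identical copies, so their counts are not of independent genes. Of 55 S phase and DNA replication genes 0 were past 0.5, with medians of 0.05, -0.07 and 0.44.

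Of 128 histone modifiers and readers 3 (2.34%, against 0.524% of all genes) were past 0.5 downward and 1 upward (0.781%, against 0.69%). Downward were Zmynd11, Phf2, a histone H3 demethylase, and Ehmt2, the H3K9 methyltransferase G9a, and upward was the demethylase gene Kdm7a. Phf2 went from 8.81, 9.33 and 9.60 to 7.83, 8.05 and 7.79 (change -1.36, SE 0.17, limma adjusted p = 0.0557), and Kdm7a from 9.71, 8.83 and 9.25 to 10.61, 9.86 and 10.73. In all 3 lines 37 of the 128 were lower (28.9%, against 14.5% of all genes) and 14 higher (10.9%, against 14.6%). Of 35 genes of MLL complexes and fusion cofactors only Hexim1, an inhibitor of the elongation kinase P-TEFb, was past 0.5 (-0.78, -0.76 and -1.61). Of 27 MLL fusion targets the only one past 0.5 was Id2 (0.80, 0.87 and 1.35), a helix-loop-helix inhibitor that also differed by 0.46 and -0.88 in the wt lines.

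Among transcription factors of blood, Irf8 and Id2 were past 0.5 upward and Cebpd and Cebpb downward, of 71 tested. Cebpb went from 9.07, 8.87 and 9.25 to 8.35, 8.33 and 8.56, without overlap (change -0.65, SE 0.10, limma adjusted p = 0.0845). In the list of 35 immediate early genes, induced within minutes of growth signals, Jun, Btg2 and Ier2 were past 0.5 downward (8.57%, against 0.524% of all genes). Id2 of the same list was past 0.5 upward (2.86%, against 0.69%). Jun went from 9.79, 10.15 and 10.53 to 8.44, 9.46 and 8.68, but differed by 1.19 in wt line 10980 and did not pass (limma adjusted p = 0.159). Akt1, a kinase of growth factor signalling, went from 11.06, 11.47 and 11.61 to 10.55, 10.79 and 10.86, and Vegfa, the angiogenic factor, from 10.53, 10.19 and 10.29 to 9.40, 9.23 and 8.85. Idh2, the mitochondrial isocitrate dehydrogenase, was the only one of 27 genes of the TCA cycle list past 0.5, from 10.89, 11.20 and 11.10 to 10.05, 10.39 and 9.93. None of these 3 passed with all lines (limma adjusted p = 0.0836, 0.0873 and 0.0836), and each passed without line 10986 (0.0235, 0.0371 and 0.0251).

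In several lists a single gene was past 0.5. Kdelr1 was the only one of 38 endoplasmic reticulum folding genes past 0.5, from 11.03, 10.53 and 10.53 to 9.55, 9.38 and 9.76, while the list medians were 0.01, 0.07 and 0.44. Dis3l was the only one of 54 RNA decay genes, Mvb12b the only one of 80 ESCRT and endosomal sorting genes, Ankrd52 the only one of 70 phosphatase regulatory subunits and Ulk2, a kinase that starts autophagy, the only one of 39 autophagy genes (-0.92, -1.02 and -0.94). Of 124 ubiquitin ligase genes Fbxw5 was past 0.5 downward and Klhl41 upward (0.87, 0.52 and 1.41). Among 286 solute carriers Slc7a11 alone was past 0.5, and among 41 ABC transporters Abcb1b, a drug efflux pump, was higher (1.27, 0.61 and 1.96) and Abca2 lower (-0.82, -0.73 and -1.25).

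Several lists of basic cell machinery had no member past 0.5, where all genes gave 0.69% higher and 0.524% lower: 0 of 57 cytosolic and 76 mitochondrial ribosomal protein genes, 0 of 81 respiratory chain genes, 0 of 48 proteasome genes, 0 of 67 splicing factors, 0 of 60 translation factors, 0 of 87 RNA polymerase and Mediator genes and 0 of 52 mitosis genes. The lists are not complete: Sem1, a proteasome subunit in no list, differed by -0.92, -0.61 and -0.68, and Cox14, an assembly factor of respiratory complex IV, by -0.79, -0.53 and -0.54, both named after their values were seen. Of 53 nuclear pore and transport genes Nup210l was past 0.5 (-0.58, -0.58 and -0.68). The mitochondrial ribosomal list had medians of -0.14, -0.10 and 0.67 in lines 10949, 10950 and 10986, the respiratory chain at -0.13, 0.03 and 0.54 and the proteasome at -0.08, 0.01 and 0.56. Olfactory receptor genes, which blood cells are not known to rely on, lay at 0.16, 0.12 and -0.45. Psmd10, a proteasome assembly factor, shows the pattern in single arrays: 11.13, 10.24 and 9.14 with vehicle against 11.07, 10.25 and 11.04 with 4-OHT. Only the vehicle array of line 10986 is far from its partner there. The mitosis list lay at -0.17, -0.30 and 0.24, with -0.23 in wt line 10977 and 0.09 in wt line 10980.

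**Figure D5:**
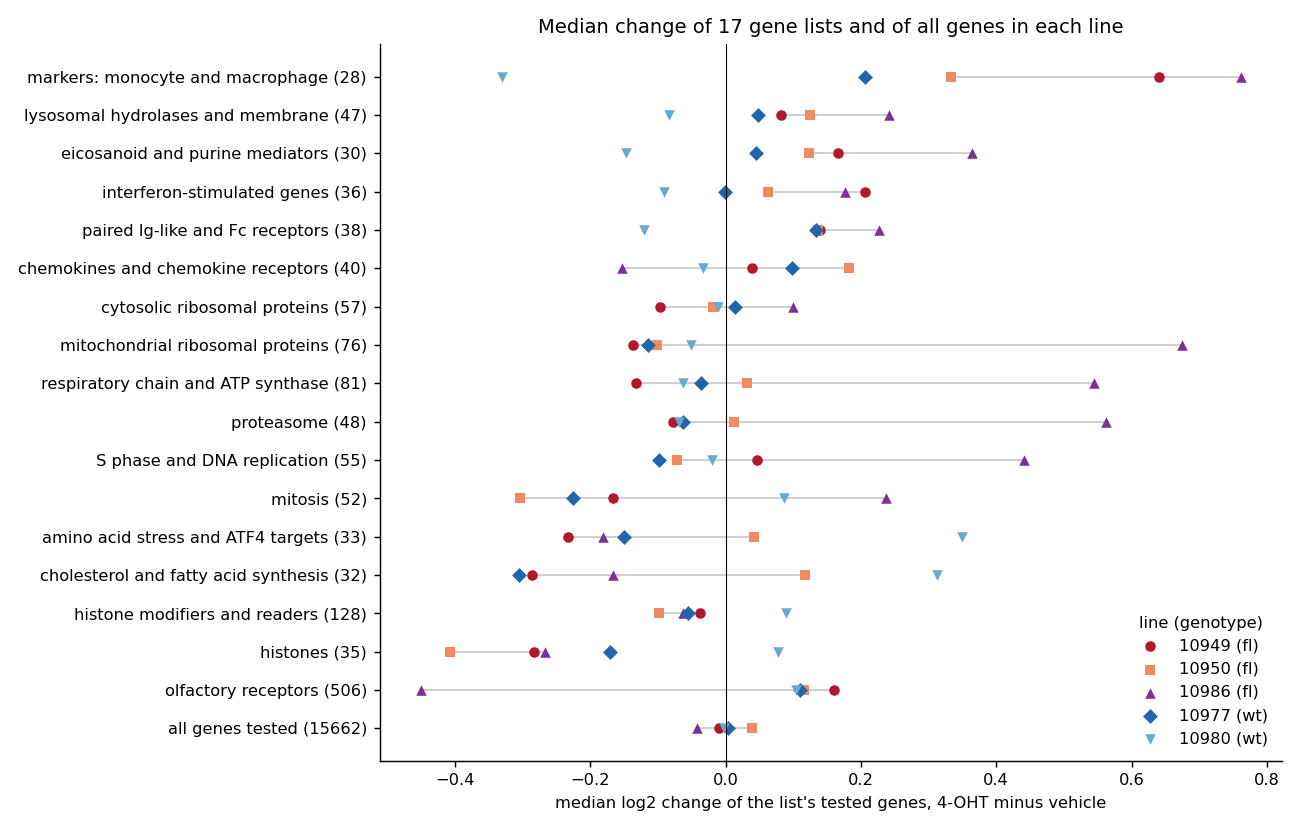
Median log2 change (4-OHT minus vehicle) of 17 gene lists and of all genes tested, with the number of genes tested in brackets, in each fl and wt line. Grey bars join the 3 fl lines. Monocyte and macrophage markers are to the right in all 3 fl lines (0.64, 0.33 and 0.76) and histones to the left (-0.28, -0.41 and -0.27), while line 10986 departs from the other 4 lines for mitochondrial ribosomal (0.67), respiratory chain (0.54), proteasome (0.56) and olfactory receptor genes (-0.45).

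Without line 10986, 144 genes rose (0.919% of the genes tested) and 296 fell (1.89%) at a limma adjusted p under 0.05. Of these, 132 and 197 moved the same way in line 10986, and 12 and 99 the opposite way. In 8 of 35 histone genes, 7 of 124 ubiquitin ligase genes and 5 of 71 blood transcription factors a fall passed there, and in 7 of 28 monocyte markers, 7 of 47 lysosomal genes and 4 of 30 eicosanoid and purine genes a rise did. In the same fit 1 monocyte marker, 1 lysosomal gene and 1 ubiquitin ligase gene passed in the other direction, as did 1 blood transcription factor. A total of 74 list members passed that were not past 0.5 in all 3 lines, of which the 8 with the largest mean changes are given here, chosen after their values were seen, apart from Ptpmt1 and Mrps26. Ptpmt1, a mitochondrial phosphatase of cardiolipin synthesis, went from 10.02 and 9.45 to 8.54 and 8.47 in lines 10949 and 10950 (change -1.23, SE 0.13, limma adjusted p = 0.00602), and from 8.96 to 8.52 in line 10986. Mrps26, a mitochondrial ribosomal protein, differed by -0.69, -1.27 and -0.30. Vps4a, the ATPase that recycles ESCRT complexes, differed by -1.04, -0.90 and -0.49, and Prdx2, a peroxiredoxin, by -1.06, -0.83 and -0.37. Cpa3, a mast cell and progenitor protease, differed by 1.38, 0.98 and 0.29, and Tgfbi, a matrix protein made by monocytes, by 1.06, 1.10 and 0.34. Cd59a, a complement inhibitor, differed by -1.39, -1.27 and -0.22, with -0.58 and -0.92 in the wt lines, and the histone gene H4c3 by -0.92, -1.03 and -0.21. The way these 8 were chosen favours a smaller change in line 10986.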

How the data were processed

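RNA of 10 samples from 5 leukaemia lines was measured on 1-colour arrays, 1 array per line and treatment. The authors deposited normalized intensity values, on a linear scale, and RMA is the method that the submitters' processing notes name. The software behind it is not given in the sources used. The values were taken to log2 here. Of 35556 probe sets, 21789 carry 1 gene symbol in the platform annotation, 1621 carry several and 12146 are not in it. Each of 19938 genes was represented by its brightest probe set, and 15662 passed the level filter, a mean log2 level above 6.23 (percentile 25 over probe sets). Precision is limited by how many arrays there are, and the median SE of the fl change was 0.117.

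One limma model (version 3.58.1, R 4.3.3, with statmod 1.5.0 for the random block) over all 10 arrays had the line as a block and a 4-OHT term for each genotype, with 3 residual and 3.69 prior degrees of freedom. P-values are two-sided and were adjusted by Benjamini-Hochberg over the 15662 genes, with a threshold of 0.05. The number in the titles pairs the arrays of a line, per the labels. The deviations of paired arrays correlated at 0.78, 0.22, -0.06, 0.43 and 0.43 in lines 10949, 10950, 10986, 10977 and 10980. With 2 wt lines the deviations mirror each other, so the value 0.43 is 1 check and not 2. For line 10986 the pairing rests on the title alone, since -0.06 does not bear it out. On simulated data for this comparison (15662 genes, 200 changed) the test recovered 97% of changes of 1 log2 unit, 98.5% of 1.5 and 100% of 2, with 8 false calls. The simulated noise was independent between arrays, with the same spread of a gene on every array, so no array stood apart. These shares therefore do not give the recovery in the real arrays, where Penk (change 2.13) and Lyz2 (2.08) did not pass.

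The members and gene lists were chosen with earlier results of these data known. The named genes are Zfx, Kit, those that passed in the fl lines or (up to 6 each way) in the difference, up to 15 each way with the largest smallest change over the 3 lines, and per functional list up to 3 members each way past 0.5 or, with none, the member with the largest mean change. Other names are said to be chosen after their values were seen. Promoter windows came from RefSeq (GRCm38.p6). Alternatives covered the block, the level filter, the probe set rule, centring, quantile normalization, the prior, array weights and leaving out each line.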

Additional observations from a re-analysis of the deposited data

Results flagged for a closer look

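For 7 of the genes that fell in the fl lines, the change in both wt lines had the opposite sign. In wt line 10980 its size ran from 0.0001 for Ptpn9, which is hardly a change, to 0.47 for H2ax. The difference of the log2 change, fl minus wt, was -1.66 for Ankrd52, -1.20 for Ext2, -0.98 for Fbxw5, -1.63 for H2ax, -1.19 for Ptpn9, -0.85 for Pyroxd2 and -1.10 for Retsat. The difference itself was tested with limma and none of the 7 passed with all arrays (adjusted p from 0.198 to 0.523). Ankrd52, Ext2, H2ax, Ptpn9 and Retsat passed without line 10986.

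Probe sets that carry several gene symbols were outside the comparisons. Of 1451 above the level filter, 4 were at least 0.5 higher and 15 at least 0.5 lower in all 3 fl lines. Together they were 1.31%, close to the 1.21% of all genes tested. In both wt lines 0 were past 0.5 in either direction.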

How the results depend on the processing

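All 24 genes kept their direction under 18 alternatives wherever they were tested (23 of 24 were tested above the 50th percentile). Each was past 0.5 with the same sign in all 3 fl lines. The direction could therefore not reverse when a line was left out or the block, prior or level filter was changed. Whether the 24 were called did depend on the setting. Against 8 genes that rose, 16 that fell and 0 with a difference between fl and wt lines, the fit with no replicate block gave 5, 23 and 1, with 13 of the 24 shared, and the pairing as a random block 17, 66 and 1. The fl arrays alone gave 0 and 0 (limma, 1453 genes at an unadjusted p under 0.05) and all 35556 probe sets 0 and 0 (3148). Without a level filter 3 rose and 5 fell, and above the 50th percentile 5 and 9. Arrays centred on their own median gave 1 and 2, quantile normalization 28 and 33, a trended robust prior 16 rises, and centring on the tested genes, chosen after seeing the data, 31 and 34. Array weights gave 1698, 2209 and 359. Leaving out the vehicle array of line 10986 together with a random block, since its partner then has no pair, gave 129, 339 and 21. Leaving out each line gave 0 to 144 that rose, 0 to 296 that fell and 0 to 20 differences; without a wt line the remaining one is assumed to vary like the fl lines. Genes past 0.5 numbered 122 to 247 higher and 131 to 201 lower over 2 fl lines, and 16 and 12 at 1 log2 unit.

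Of 147 named genes, 3 reversed: Krt8 to 0.028 with array weights, Psmd10 to -0.023 without line 10986 (leaving out each line, -0.023 to 0.955), and Tbx21 to 0.0042 without that line's vehicle array and with a random block, and 0.0085 without the line (leaving out each line, -0.248 to 0.0085). The cause was not tested. Of 814 list medians recomputed, 36 moved by more than 1 SD of the lines. That SD is taken over the list's medians in the 3 fl lines, so a line that stands apart widens it. The mitochondrial ribosomal median went from 0.155 to -0.115 without line 10986 and did not count as moved. The count of 36 therefore does not show that the medians hold without that line. Signal near background limits genes such as Cibar1.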

Other observations

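Small structured RNAs, which guide RNA modification and splicing or form small ribonucleoprotein particles, were on the array as 66 tested genes, a set chosen after its values were seen. In all 3 fl lines 34 of them were lower (51.5%, against 14.5% of all genes) and 2 were higher, and 0 passed the limma test. The median change was -0.26, -0.36 and -0.04 in lines 10949, 10950 and 10986 and -0.09 and 0.10 in the wt lines. Those at least 0.5 lower in every fl line were Vaultrc5, a vault RNA, Snord118, the U8 RNA of ribosomal RNA processing, Rnu12, a minor spliceosome RNA, and Scarna17 (6.06%, against 0.524% of all genes). Snord118 went from 11.95, 12.15 and 11.85 to 11.08, 11.23 and 11.19, without overlap. Vaultrc5 went from 11.07, 11.86 and 11.73 to 8.85, 10.50 and 9.42 and differed by 1.68 in wt line 10980. DQ267102 was the only one at least 0.5 higher (0.52, 0.60 and 0.53). The labels do not say how short RNAs were kept in the extracts, and its part in these values was not tested.

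Above the level filter were 8137 probe sets with no gene symbol. Of these, 30 were at least 0.5 higher and 32 lower in all 3 fl lines (0.762%, against 1.21% of all genes). In both wt lines 10 were higher and 91 lower, against 0 and 2 of the genes tested. The wt counts ask for 2 lines and the fl counts for 3, so they are not on 1 scale.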
